A study of Homo sapiens with 4 samples.

Results

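The SMAD signalling genes are 10 genes: the BMP SMADs SMAD1 and SMAD5, the TGF-beta SMADs SMAD2 and SMAD3, the shared partner SMAD4, the inhibitory SMADs SMAD6 and SMAD7, and the ID genes ID1, ID2 and ID3. They were followed through every probe set that the platform's annotation ties to exactly 1 of them, 32 of 54675 probe sets on the array. The set was chosen by the ratios of hMOF siRNA to scramble on these arrays, SMAD5 being among the largest differences shared by the lines, so their values with hMOF siRNA are given as a description with no test. A549, an adenocarcinoma line, and H1299, a large cell carcinoma line from a lymph node metastasis, both human non-small cell lung cancer lines, were cultured in medium holding 10% fetal bovine serum, then transfected with a lipid reagent. Each line received a scramble siRNA or an siRNA against hMOF, the histone H4 acetyltransferase encoded by KAT8, so that all 4 groups carried a transfected siRNA and no untransfected cells were included. Each of the 4 combinations has 1 array of total RNA, and nothing in the labels gives repeated cultures, the siRNA sequence, the dose or the time after transfection.

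SMAD proteins carry signals of the TGF-beta family from the cell surface to the nucleus. TGF-beta and activin receptors phosphorylate SMAD2 and SMAD3, whereas BMP receptors phosphorylate SMAD1, SMAD5 and SMAD9. The phosphorylated forms bind SMAD4 and regulate genes, among them ID1, ID2 and ID3, whose products lack a DNA-binding region and hold basic helix-loop-helix factors inactive. SMAD6 and SMAD7 are themselves induced by the pathway and block it. In epithelial cells TGF-beta signalling is known for growth arrest and, in tumours, for the shift towards a mesenchymal state.

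Median array signals lay between 73.3 and 75.4, and the log2 signals of arrays of the same line correlated at 0.986 and 0.981, against 0.884 to 0.894 between lines. KAT8 (probe set 221820_s_at) kept 26.4% of its scramble signal in A549 and 25.6% in H1299. Its other probe set, 214885_at, was dim and kept more, at 61.6 and 51.6 in A549 (83.8% left) and at 61.7 and 39.8 in H1299 (64.5% left). The groups follow the source names of the arrays, since 2 arrays carry a treatment tag that contradicts their source name. The 5 epithelial markers EPCAM, CDH1, KRT8, KRT18 and KRT7 summed to 27526 and 25652 in A549 (scramble, then hMOF siRNA) and to 3720.5 and 2805 in H1299, with CDH1 at 8.04 and 7.61 there. Most of the H1299 sum was KRT18, at 3320 and 2459, so the sums say little of the other markers. KRT7, for example, read 6775 and 6548 in A549 against 139 and 105 in H1299. The 3 mesenchymal markers summed to 12746 and 15551 in A549 and to 17397 and 17482 in H1299, most of it VIM. Of the other two, CDH2 stood higher in A549 (2849 and 3733 against 766 and 930) and ZEB1 higher in H1299 (531 and 491 against 844 and 957). Of the defining alveolar markers, NKX2-1 stood between 60.8 and 72.9, under the signal minimum explained next, SFTPC between 110 and 120 and SFTPB between 702 and 798 over all arrays. Of the 9 blood, endothelial and fibroblast markers, 4 reached that minimum, and COL1A1 was at 541 and 1191 in A549. The part of these markers in the results was not tested.

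Values are MAS5 signals on a linear scale. Ratios were taken on the log2 scale after adding 29.06 to every signal, which shrinks the ratios of dim probe sets. A probe set was kept for comparisons when its signal, averaged over the 4 arrays, reached 78.1, which held for 27307 probe sets in all and for 22 of the 32 of the SMAD signalling genes, with every gene represented. The kept probe sets nearest to this minimum were 205396_at of SMAD3, with a mean of 115, and 205188_s_at of SMAD5, with a mean of 147, and the nearest left out were 205397_x_at of SMAD3 (74.3) and 209886_s_at of SMAD6 (71.1). Levels are not compared between probe sets, whose probes differ in response.

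With hMOF siRNA, SMAD5 stood far below scramble in both lines, the ID genes were lower by a smaller amount, SMAD3 was lower on its brighter probe sets, and SMAD1 stayed near its scramble signal. Over the 22 kept probe sets the log2 ratio of hMOF siRNA to scramble had the same median in A549 and in H1299, −0.43, against −0.03 and −0.01 over all 27307 kept probe sets. In A549, 4 of the 22 were at least 2-fold lower (0.967% of all kept probe sets were), or 3 after quantile normalization or with a larger offset, and in H1299 3 of the 22 (1.85% of all), or 4 with no offset. Those 2-fold lower in both lines were 3 probe sets of SMAD5, where 0.630% of all kept probe sets were. None was 2-fold higher in either line, against 0.656% of all in A549 and 1.14% in H1299. Since SMAD5 was chosen for this difference, nothing is read from these counts. Without SMAD5, the median of the remaining 18 probe sets was −0.28 in A549 and −0.30 in H1299. Of the 22, 16 were below 0 in both lines, and 13 after quantile normalization (36.6% of all kept probe sets were, before it). The whole set was chosen with these ratios in view, so nothing is read from these medians and this count either. A ratio within a line is 1 array over 1 array and has no error of its own, so a spread is given only between the 2 lines. In RNA from whole cultures, fewer cells of a kind and less RNA per cell cannot be told apart.

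**Figure D1:**
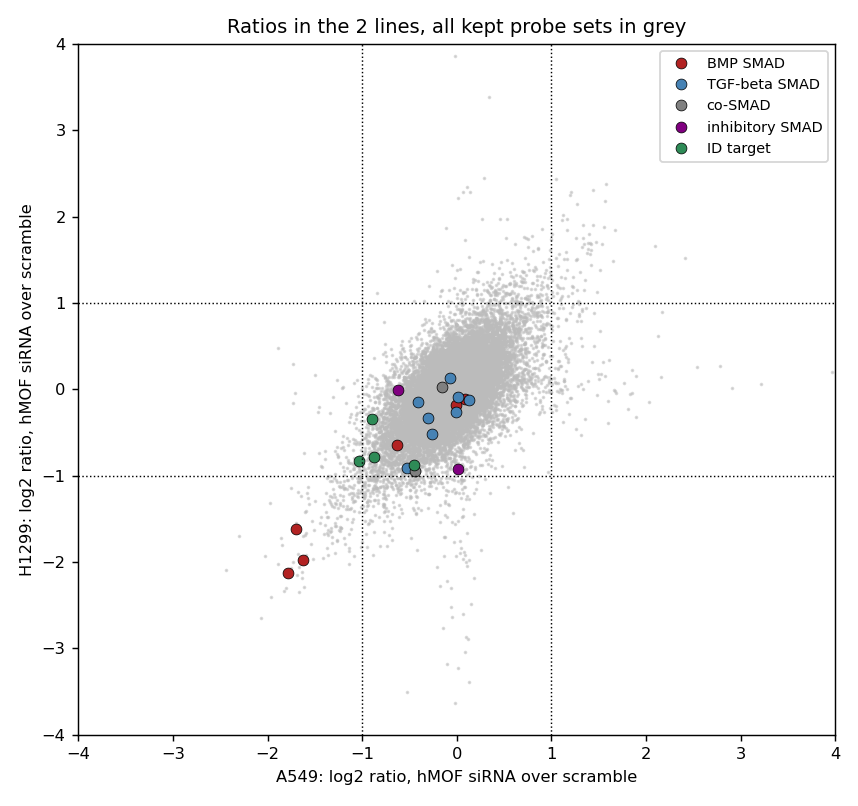
Log2 ratio of hMOF siRNA over scramble in A549 (horizontal axis) and H1299 (vertical axis), 1 point per kept probe set; the 22 probe sets of the SMAD signalling genes are coloured by class, the other kept probe sets are grey, and dotted lines mark 2-fold. Of the 4 SMAD5 probe sets, 3 lie beyond 2-fold in both lines, and the ID probe sets lie below 0 in both.

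Among the BMP SMADs, SMAD5 was described by 5 probe sets, 4 of them kept. Probe set 225219_at gave a signal of 1389 on the A549 scramble array and 429 on the A549 hMOF siRNA array, and 1259 and 299 on those of H1299. The signals of 225223_at were 950 against 255 in A549 and 884 against 180 in H1299. Those of 235451_at were 597 against 164 in A549 and 380 against 104 in H1299. On each of these probe sets both hMOF siRNA arrays lay below both scramble arrays. The signal left was 27.3% ± 5.05, 23.6% ± 4.60 and 27.4% ± 0.11 of scramble (SD, n = 2 lines), beside the 26.4% and 25.6% left of KAT8, the siRNA target. In A549 their log2 ratios were −1.63, −1.78 and −1.70, and in H1299 −1.97, −2.13 and −1.62.

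The 4th kept SMAD5 probe set, 205188_s_at, moved less. It stood at 194 and 115 in A549 and at 176 and 103 in H1299, which left 58.8% ± 0.84 (SD, n = 2 lines), again with both hMOF siRNA arrays below both scramble arrays. The remaining SMAD5 probe set, 205187_at, was too dim to be kept, with 64.5 and 25.1 in A549 and 62.1 and 18.5 in H1299. All 5 probe sets were thus lower with hMOF siRNA in both lines, and they differed in how much signal remained. Probe sets of 1 gene share its transcripts and are no replicates. Among the 12829 other genes, each taken by its brightest kept probe set, the patterns nearest to that of SMAD5 (225219_at), by Euclidean distance of centred log2 values over the 4 arrays, belonged to UBE2Q1 (distance 0.13), which encodes a ubiquitin-conjugating enzyme, to GCH1 (0.16), which encodes the first enzyme of tetrahydrobiopterin synthesis, and to TRIM14 (0.17). GCH1, for example, had signals of 908 and 298 in A549 and of 771 and 177 in H1299.

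The window upstream of the SMAD5 start is shown because SMAD5 had the lowest ratios of the genes described here. It covers the 250 bases before the RefSeq start on GRCh38.p14, chr5:136132595-136132844, plus strand, 5′ to 3′. Capitals would mark CAGAC, the SMAD-binding element, GGCGCC, a GC-rich element bound by BMP SMADs, or GTCTAGAC, the palindromic SMAD-binding element, each searched on both strands, and these letters are not in this window.
SMAD5: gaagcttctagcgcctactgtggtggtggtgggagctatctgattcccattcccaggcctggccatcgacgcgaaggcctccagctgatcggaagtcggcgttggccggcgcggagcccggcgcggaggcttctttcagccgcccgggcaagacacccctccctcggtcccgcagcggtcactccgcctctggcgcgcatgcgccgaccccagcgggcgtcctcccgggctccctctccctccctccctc

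SMAD1, the close relative of SMAD5, had 2 kept probe sets, on which the arrays differed little. Probe set 227798_at stood at 366 and 392 in A549 and at 349 and 322 in H1299. Probe set 210993_s_at stood at 278 and 277 in A549 and at 299 and 261 in H1299. The signal left was 99.6% ± 10.3 and 93.5% ± 8.76 (SD, n = 2 lines), and the log2 ratios of both probe sets lay between −0.18 and 0.09. The mean log2 ratio of 227798_at was −0.01 and turned to 0.07 after quantile normalization, so no direction is given for it. A 3rd SMAD1 probe set, 208015_at, was dim, between 28.9 and 33.1 on all arrays. SMAD9, which carries BMP signals as well but is no member of this set, had 1 kept probe set (227719_at), at 58.1 and 56.6 in A549 and at 358 and 249 in H1299.

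**Figure D2:**
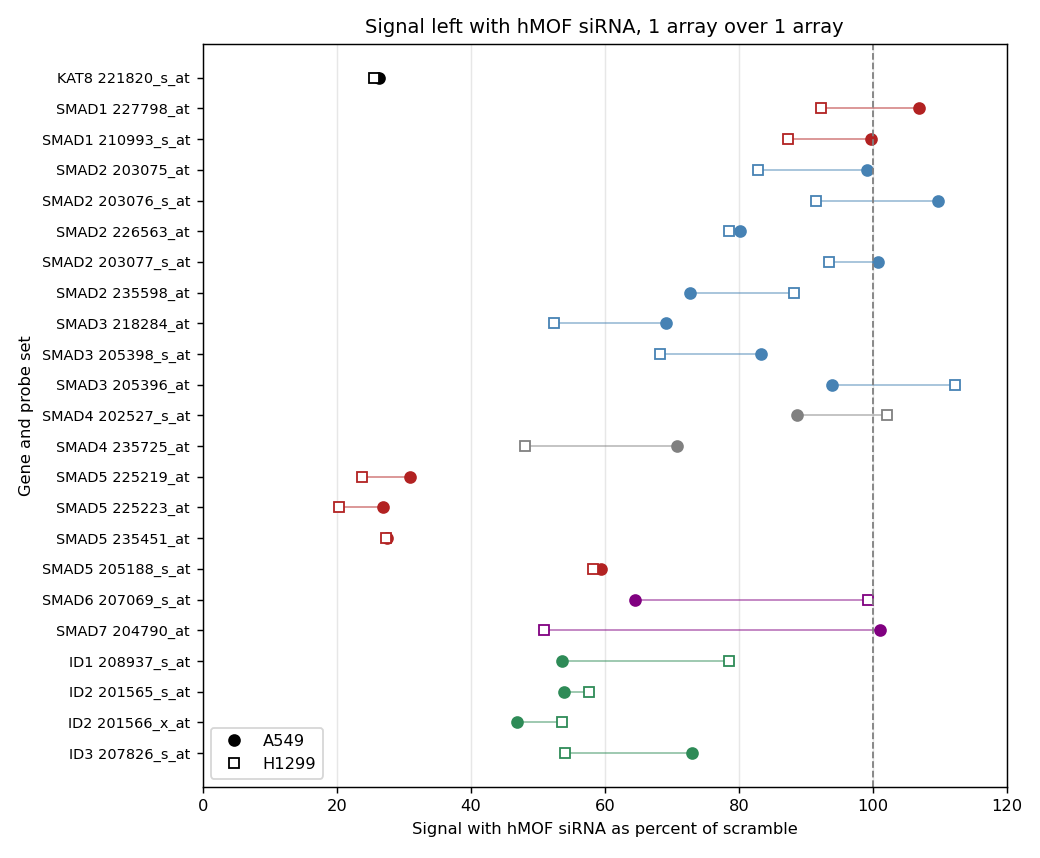
Signal with hMOF siRNA as percent of the scramble signal of the same line, for KAT8 and the 22 kept probe sets; filled circles are A549, open squares H1299, and each point is 1 array over 1 array. Of the 4 SMAD5 probe sets, 3 stand beside KAT8 at 20.4% to 30.9%, and 205188_s_at lies at 59.4% in A549 and 58.2% in H1299. Both SMAD1 probe sets lie between 87.3% and 107%.

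Of the TGF-beta SMADs, SMAD3 was lower on its 2 brighter probe sets. Probe set 218284_at gave 2188 and 1513 in A549 and 2166 and 1137 in H1299, log2 ratios of −0.52 and −0.91. Probe set 205398_s_at gave 1337 and 1114 in A549 and 621 and 424 in H1299, log2 ratios of −0.26 and −0.52. Both were lower with hMOF siRNA in both lines, and further from 0 in H1299. On 218284_at the scramble arrays lay above both hMOF siRNA arrays, and on 205398_s_at the lines were further apart than the siRNAs. The dimmer 205396_at did not share this, at 125 and 117 in A549 and at 104 and 116 in H1299. The 4th, 205397_x_at, lay below the minimum, between 61.9 and 88.3.

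SMAD2 had 5 kept probe sets, whose log2 ratios ran from −0.41 to 0.13 in A549 and from −0.34 to −0.09 in H1299. All 5 were below 0 in H1299 and 3 in A549. The brightest, 203075_at, stood at 2012 and 1995 in A549 and at 1019 and 845 in H1299. The steadiest difference between siRNAs was that of 226563_at, at 1034 and 829 in A549 and at 866 and 680 in H1299, which left 79.4% ± 1.17 (SD, n = 2 lines). The mean log2 ratio of 203077_s_at turned from −0.04 to 0.03 after quantile normalization, and that of 203076_s_at turned sign within 0.05 of 0 with the scaling. The remaining kept probe set, 235598_at, left 72.6% in A549 and 88.3% in H1299, and 239271_at lay below the minimum, between 62.2 and 78.1.

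SMAD4, the partner that both branches share, gave unlike answers on its 2 kept probe sets. Probe set 202527_s_at stood at 417 and 370 in A549 and at 364 and 372 in H1299. Probe set 235725_at stood at 277 and 196 in A549 and at 363 and 174 in H1299, with both hMOF siRNA arrays below both scramble arrays. The signal left was 95.4% ± 9.55 on the first and 59.4% ± 16.0 on the second (SD, n = 2 lines). The mean log2 ratio of 202527_s_at turned from −0.07 to 0.01 after quantile normalization. The 3 probe sets below the minimum, 1565703_at, 202526_at and 1565702_at, had mean signals of 57.1, 44.8 and 12.3.

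**Figure D3:**
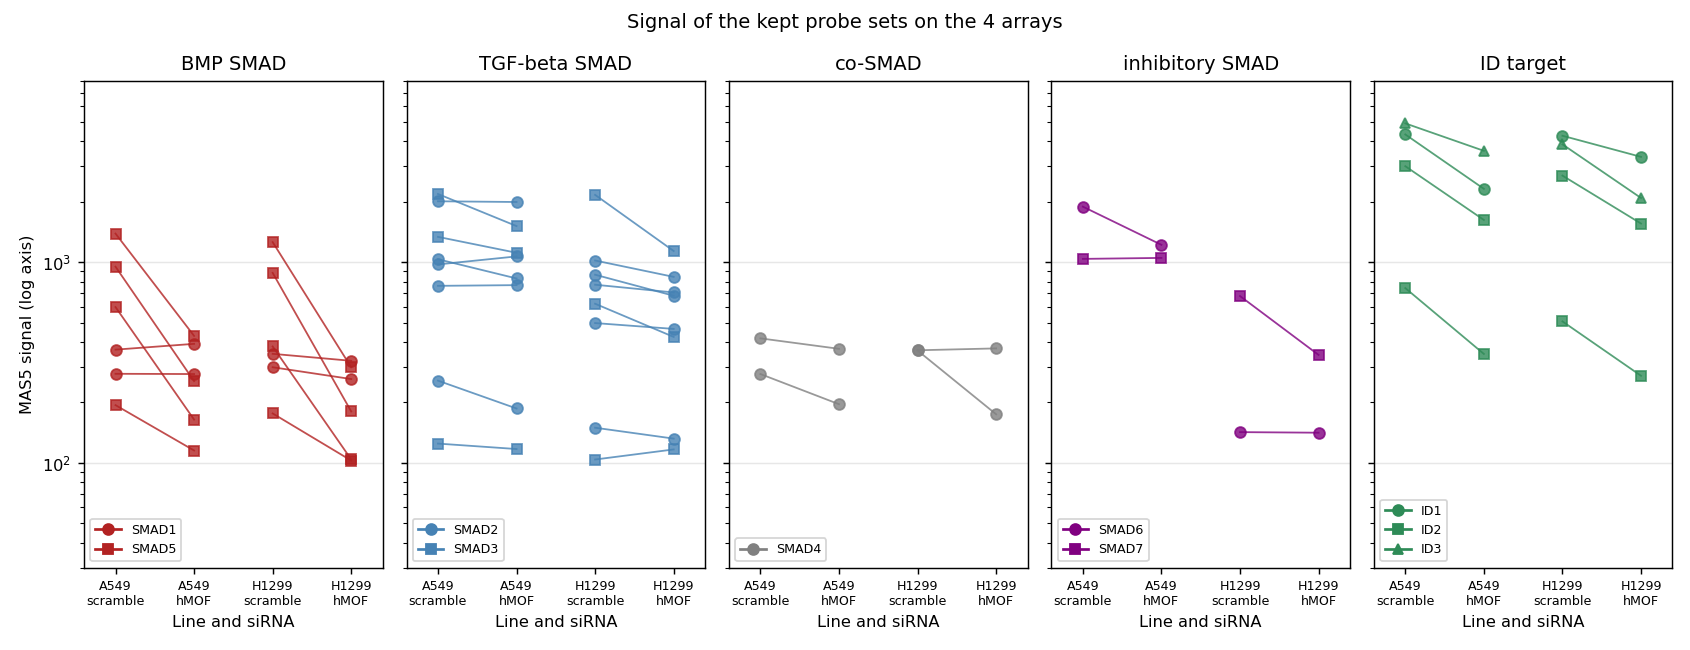
MAS5 signal (log axis) of each of the 22 kept probe sets on the 4 arrays, in 1 panel per class; lines join the scramble and hMOF siRNA arrays of a cell line, and marker shapes tell genes apart. SMAD5 lies far lower with hMOF siRNA in both lines, the ID probe sets lie lower in both, and SMAD6 differs mainly between the lines.

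The inhibitory SMADs were lower in different lines. SMAD6 (207069_s_at) went from 1892 on the A549 scramble array to 1220 with hMOF siRNA, and read 142 and 141 on the H1299 arrays. SMAD7 (204790_at), which recruits ubiquitin ligases to TGF-beta receptors, stood at 1038 and 1050 in A549 and at 678 and 345 in H1299. The log2 ratio of SMAD6 was −0.62 in A549 and −0.01 in H1299, and that of SMAD7 was 0.02 and −0.92. With 1 array per group, whether the ratios differ between lines cannot be tested. The 3 dimmer SMAD6 probe sets had mean signals of 34.9 to 71.1 and were left out. Of these, 213565_s_at also read higher in A549, at 89.2 and 72.9 against 33.9 and 34.8 in H1299. The others differed little between the lines. Probe set 209886_s_at read 73.13 and 68.05 in A549 against 73.63 and 69.42 in H1299, and 209887_at read 33.15 and 36.96 against 35.91 and 33.41.

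The ID genes were lower with hMOF siRNA on all 4 of their probe sets in both lines. ID1 (208937_s_at) gave 4334 on the A549 scramble array against 2321 with hMOF siRNA, and 4269 against 3350 in H1299. ID2 (201565_s_at) gave 3009 and 1623 in A549 and 2701 and 1558 in H1299. ID3 (207826_s_at) gave 4920 and 3590 in A549 and 3868 and 2089 in H1299. On each of these 3 probe sets both hMOF siRNA arrays lay below both scramble arrays. The signal left was 66.0% ± 17.6 for ID1, 55.8% ± 2.64 for ID2 and 63.5% ± 13.4 for ID3 (SD, n = 2 lines). The ID1 ratio was further from 0 in A549 (log2 −0.89 against −0.35) and the ID3 ratio in H1299 (−0.45 in A549 against −0.88), whereas the ID2 ratios lay close together (−0.88 and −0.78).

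The other ID2 probe set, 201566_x_at, a type of probe set that may also bind further transcripts, gave 743 and 349 in A549 and 507 and 271 in H1299, or 50.3% ± 4.68 left (SD, n = 2 lines). Its A549 log2 ratio of −1.03 lay past 2-fold, and at −0.95 after quantile normalization and −0.98 with a larger offset it did not. Outside SMAD5 the nearest to 2-fold otherwise was 235725_at of SMAD4 in H1299, at −0.95 with the offset and −1.06 without it. Probe set 213931_at, which the annotation ties to ID2 and to its pseudogene ID2B and which the choice of members leaves out, kept 54.9% of its signal in A549 and 56.3% in H1299. ID4 is no member of this set, and its only kept probe set, 209291_at, was dim, at 49.2 and 28.4 in A549 and at 114 and 137 in H1299.

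The windows upstream of the ID genes are shown because these genes are lower together. Each covers the 250 bases before the RefSeq start on GRCh38.p14, 5′ to 3′ on the gene's strand: ID1 at chr20:31605039-31605288, plus strand, ID2 at chr2:8681806-8682055, plus strand, and ID3 at chr1:23559502-23559751, minus strand. Capitals mark CAGAC or its reverse complement, GGCGCC and GTCTAGAC, of which ID3 holds CAGAC once and ID1 and ID2 hold none in these windows.
ID1: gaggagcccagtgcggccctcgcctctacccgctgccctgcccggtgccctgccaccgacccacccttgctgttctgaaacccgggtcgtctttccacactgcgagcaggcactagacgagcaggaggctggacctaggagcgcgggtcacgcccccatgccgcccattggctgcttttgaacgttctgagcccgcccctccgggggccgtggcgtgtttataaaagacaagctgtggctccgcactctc
ID2: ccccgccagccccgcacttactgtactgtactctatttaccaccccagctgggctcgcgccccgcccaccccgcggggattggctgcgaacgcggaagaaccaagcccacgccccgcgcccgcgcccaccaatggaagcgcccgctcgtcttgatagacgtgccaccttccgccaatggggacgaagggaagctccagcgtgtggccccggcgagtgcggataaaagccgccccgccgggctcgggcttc
ID3: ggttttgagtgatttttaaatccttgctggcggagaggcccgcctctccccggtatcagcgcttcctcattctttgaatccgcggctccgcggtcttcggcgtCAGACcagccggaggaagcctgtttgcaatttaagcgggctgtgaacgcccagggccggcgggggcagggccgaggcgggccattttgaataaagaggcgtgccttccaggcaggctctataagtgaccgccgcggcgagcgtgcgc
Over 34943 such windows of the RefSeq table, 38.0% held CAGAC, 16.4% GGCGCC and 0.183% GTCTAGAC. None of these motifs holds another, and neighbouring matches of CAGAC with either of the others can share 1 base. All 10 members matched the table, with 21 windows, of which 6 held CAGAC, 6 GGCGCC and 1 GTCTAGAC. A match is a description of letters and marks no bound site.

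The next comparison set H1299 against A549. By limma with siRNA as a block, 10 of the 22 kept probe sets were higher in A549 and none in H1299, where 24.6% of all kept probe sets were called higher in A549 and 25.3% higher in H1299. Of the 10, 4 were probe sets of SMAD2, which are no replicates. With 1 probe set per gene, 4 of the 10 genes were called, all higher in A549. Over all genes taken by their brightest kept probe set, 28.0% were higher in A549 in the reported fit. Of the 22 probe sets, that of SMAD6 differed most, with 1892 and 1220 in A549 against 142 and 141 in H1299. That is 13.3-fold with scramble and 8.64-fold with hMOF siRNA in linear signal, and a mean log2 difference of −3.18 (SE 0.17, limma adjusted p = 5.79e-05). SMAD7 was higher in A549 as well, at a mean log2 difference of −1.06 (SE 0.22), 1.53-fold with scramble and 3.05-fold with hMOF siRNA (limma adjusted p = 0.0101). Both inhibitory SMADs were thus higher in A549 on both arrays.

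The SMAD6 upstream window is shown because SMAD6 differed most between the lines. It lies at chr15:66701986-66702235 on GRCh38.p14, plus strand, 5′ to 3′, and capitals mark GTCTAGAC, whose first base lies at −12 from the start.
SMAD6: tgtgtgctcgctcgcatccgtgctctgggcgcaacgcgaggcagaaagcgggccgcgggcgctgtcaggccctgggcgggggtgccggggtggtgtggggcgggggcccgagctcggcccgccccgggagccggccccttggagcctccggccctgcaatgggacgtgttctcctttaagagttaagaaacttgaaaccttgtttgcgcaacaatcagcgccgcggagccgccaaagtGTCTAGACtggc

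Of SMAD2, 4 of 5 kept probe sets were higher in A549, with mean log2 differences of −1.09 for 203075_at (limma adjusted p = 0.000968), −0.64 for 203077_s_at (0.00540), −0.55 for 235598_at (0.0131) and −0.45 for 203076_s_at (0.0263). The 5th, 226563_at, pointed the same way at −0.26 and did not pass (limma adjusted p = 0.103). SMAD3 was split by probe set. Probe set 205398_s_at was higher in A549 (−1.20, limma adjusted p = 0.000681), whereas 218284_at, at 2188 against 2166 with scramble, was at −0.21 and did not pass (0.261).

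The BMP SMADs differed less between the lines. Of SMAD5, 235451_at was higher in A549 (mean log2 −0.58, limma adjusted p = 0.00779) and the other 3 kept probe sets, at −0.31 to −0.13, did not pass. SMAD1, at −0.16 and 0.01, and SMAD4, at −0.09 and 0.11, did not pass on either kept probe set. Of the ID genes, ID3 was higher in A549 (−0.56, limma adjusted p = 0.0205), as was ID2 on 201566_x_at (−0.43, 0.0277). ID2 on 201565_s_at (−0.11) and ID1 (0.25) did not pass. With scramble siRNA the ID1 signals of the lines were 4334 and 4269, and with hMOF siRNA they were 2321 in A549 and 3350 in H1299. Without the block for siRNA the calls on SMAD6, on 205398_s_at of SMAD3 and on 203075_at and 203077_s_at of SMAD2 were kept and the other 6 were lost (limma adjusted p from 0.0592 to 0.628).

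**Figure D4:**
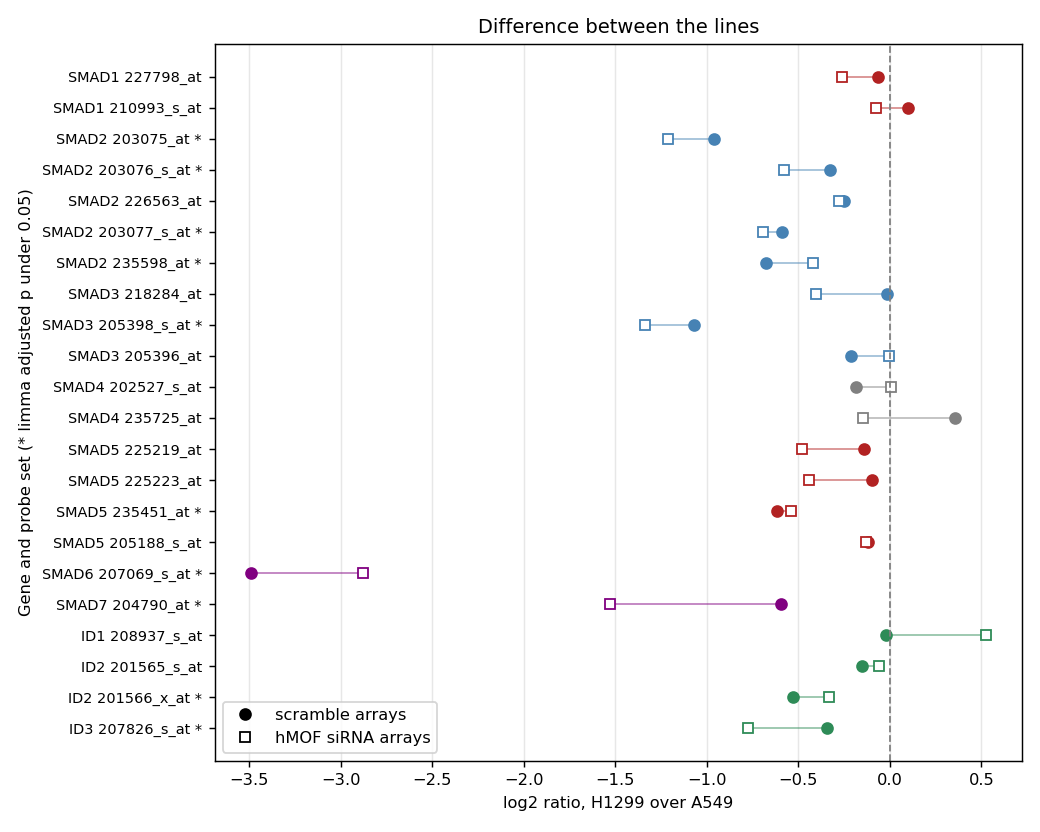
Log2 ratio of H1299 over A549 for the 22 kept probe sets, with scramble arrays as filled circles and hMOF siRNA arrays as open squares; asterisks mark a limma adjusted p under 0.05. SMAD6 lies furthest to the left, at −3.49 and −2.88, and ID1 is the probe set furthest to the right with hMOF siRNA, at 0.52.

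The other genes of the pathway were followed on 6 lists of 117 genes, of which 89 had a kept probe set and were read from the brightest one. Limma, fitted to all 4 arrays with cell line as a block, called 4.01% of all kept probe sets lower with hMOF siRNA and 1.93% higher. It has 1 residual degree of freedom and takes the 2 lines as repeats, so it measures only the spread between these arrays. By this test 7 of the 89 fell with hMOF siRNA, 1 rose and 81 did not pass, where 4.55% of all 12830 genes so taken fell and 2.29% rose. The lists were chosen with earlier results of these data known, so nothing is read from these counts. The median log2 ratio of the 89 was −0.02 in A549 and −0.12 in H1299, against −0.02 and −0.01 over all genes.

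None of 15 ligands passed. Of 13 receptors and coreceptors 2 fell and 11 did not pass. TGFBR3 (226625_at), the coreceptor betaglycan that presents TGF-beta ligands, went from 729 to 430 in A549 and from 2049 to 1300 in H1299 (log2 −0.68 on average, SE 0.11, limma adjusted p = 0.0318), and its other kept probe set fell as well (−0.76). RGMB (226989_at), a BMP coreceptor, went from 378 to 193 in A549 and from 683 to 393 in H1299 (−0.81, SE 0.12, limma adjusted p = 0.0227), but its 2 dimmer kept probe sets were at 0.07 and 0.19 and did not pass. None of 14 secreted and membrane antagonists passed.

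Of 22 SMAD regulators 2 fell and 20 did not pass. SMURF1 (212666_at), a ubiquitin ligase that targets BMP SMADs and receptors, went from 445 to 228 in A549 and from 894 to 373 in H1299 (log2 −1.04 on average, SE 0.13, limma adjusted p = 0.0179), while 2 dimmer kept probe sets were at 0.22 and 0.08 and did not pass. TOB1 (202704_at), an antiproliferative protein that restrains BMP SMADs, went from 3206 to 1864 in A549 and from 2101 to 713 in H1299 (−1.15, SE 0.19, limma adjusted p = 0.0320), and its other kept probe set fell as well (−1.26). The TOB1 call was lost when 1 probe set per gene was tested (limma adjusted p = 0.0586).

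Of 17 further SMAD target genes 1 rose, 1 fell and 15 did not pass. PMEPA1 (222449_at), a TGF-beta target whose product restrains SMAD2 and SMAD3, rose from 2986 to 5547 in A549 and from 829 to 1659 in H1299 (log2 0.93 on average, SE 0.11, limma adjusted p = 0.0176). Its other kept probe sets were at 0.49 and 0.25 and did not pass. MSX1 (205932_s_at), a homeobox gene induced by BMP, went from 390 to 272 in A549 and from 111 to 53.8 in H1299 (−0.62, limma adjusted p = 0.0499), and this call was lost under 6 of 9 alternatives that kept the block.

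Of 8 factors that bind ID proteins or act beside them, ETS1 and HES1 fell and 6 did not pass. ETS1 (224833_at), an ETS family factor that ID proteins can bind, went from 444 to 167 in A549 and from 2084 to 722 in H1299 (log2 −1.38 on average, SE 0.12, limma adjusted p = 0.0115), and its other kept probe set fell too (−1.25). HES1 (203394_s_at), a repressor of the basic helix-loop-helix family, went from 326 to 188 in A549 and from 730 to 408 in H1299 (−0.75, limma adjusted p = 0.0260), and its other probe set was at −0.48 and did not pass.

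**Figure D5:**
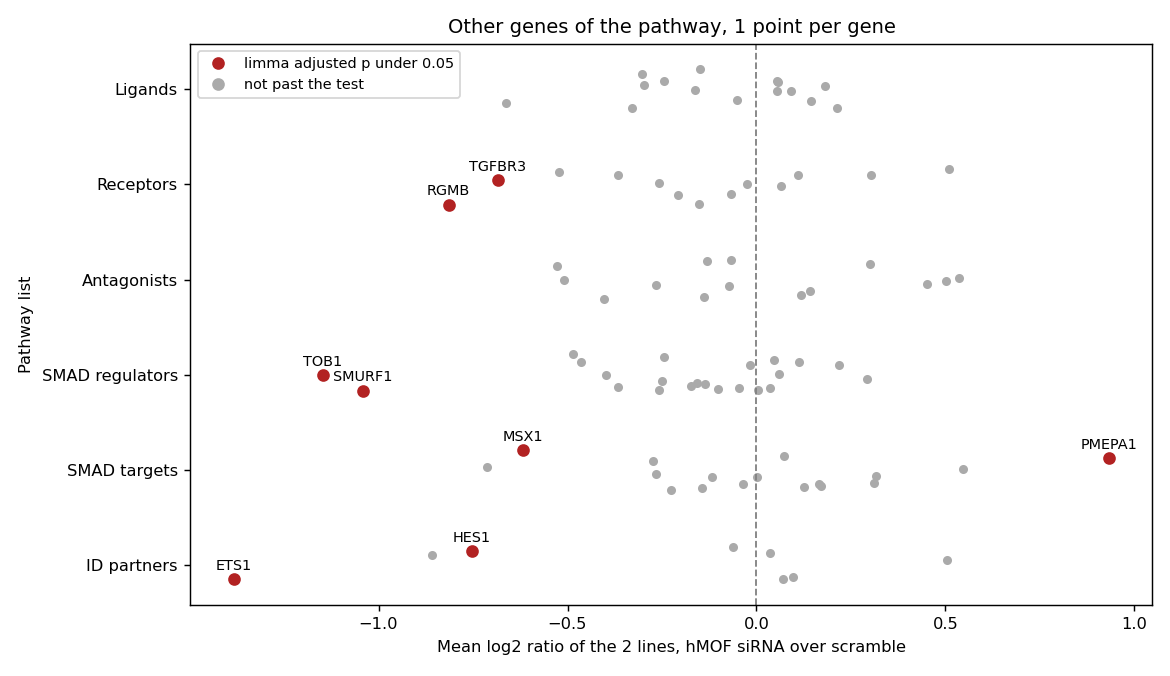
Mean log2 ratio of hMOF siRNA over scramble in the 2 lines for the 89 other pathway genes, 1 point per gene, in 6 rows by role (vertical scatter within a row has no meaning); red points passed limma at an adjusted p under 0.05. Apart from PMEPA1 at 0.93, the genes that passed lie between −1.38 and −0.62.

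Between the lines, 40 of the 89 pathway genes were higher in A549 and 24 higher in H1299 by limma, where 28.0% and 25.7% of all genes so taken were. On 17 of these 64 genes (10 higher in A549, 7 in H1299) both arrays of the other line lay under 78.1, so that they were kept only through the line where they were high, and for those named here only the signals are given.

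Of the ligands, INHBB, a subunit of activin B, read 725 and 471 in A549 against 12.6 and 12.3 in H1299, and BMP4 read 428 and 360 against 77.5 and 60.1. GDF15, a stress-induced ligand, read 504 and 160 against 33.9 and 41.8. All were dim in H1299. The TGF-beta receptor genes TGFBR1 (4227 and 7012 in A549, 511 and 633 in H1299, limma adjusted p = 3.13e-05) and TGFBR2 (5165 and 5537 in A549, 1172 and 756 in H1299, limma adjusted p = 0.000209) were higher in A549. ACVR1C, the receptor ALK7, stood the other way, at 17.2 and 12.8 in A549 against 206 and 127 in H1299.

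Of the antagonists, BAMBI, a decoy receptor, was at 2158 and 1683 in A549 and at 49.0 and 20.1 in H1299, and GREM1, a secreted BMP antagonist, was at 647 and 1505 against 31.5 and 20.8. FSTL1, a follistatin-like secreted protein, was higher in A549 (mean log2 −4.36, limma adjusted p = 6.78e-06). Not all antagonists went this way. Limma called 7 of the 14 higher in A549 and 2 in H1299. These counts include genes kept only through the line where they were high, such as BAMBI, GREM1 and NOG, so nothing is read from them. NOG read 41.1 and 59.1 in A549 against 1704 and 926 in H1299. FST was higher in H1299 as well (mean log2 0.75, limma adjusted p = 0.0316). Of the regulators, TGIF1, a corepressor, was higher in A549 (−1.16, limma adjusted p = 0.000644), whereas SMURF2, a ubiquitin ligase of SMADs and receptors, was higher in H1299 (1573 and 1614 in A549, 3495 and 2953 in H1299, limma adjusted p = 0.00143). SMAD9 read 58.1 and 56.6 in A549 against 358 and 249 in H1299.

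Of the target genes, TGFBI, a matrix protein gene induced by TGF-beta, was at 13919 and 16674 in A549 and at 282 and 299 in H1299 (mean log2 −5.58, limma adjusted p = 3.94e-06), and COL1A1 was at 541 and 1191 in A549 and at 7.97 and 7.89 in H1299. CDKN2B, which encodes the cell cycle inhibitor p15 and is induced by TGF-beta, stood the other way, at 10.3 and 10.5 in A549 and at 576 and 689 in H1299. The 8 ID partners were divided, with 4 higher in H1299 and 3 higher in A549. The largest differences were those of ETS1 (mean log2 2.05, limma adjusted p = 8.64e-05), TWIST1 (1.97, 7.54e-05) and TCF4 (1.73, 0.000196), all higher in H1299. Higher in A549 were TCF12 (−0.72, limma adjusted p = 0.0225), TCF3 (−0.70, 0.00378) and ELK4 (−0.49, 0.0134).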

How the data were processed

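Signals were deposited by the authors as linear intensity values per probe set, made with MAS5 per the submitters' processing notes, from biotinylated cRNA of 6 ug of total RNA per the labels. The scaling target of MAS5 is not given in the sources used here, nor is its background method, and detection calls were not used. Of 54675 probe sets, 41091 had 1 gene in the platform annotation, 1801 had several, 11721 had none and 62 were controls. Symbols were looked up in a RefSeq table of GRCh38.p14, which changed 0 of them and lacked the identifiers of 54 probe sets.

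The offset of 29.06 was the 20th percentile of all signals and the minimum of 78.1 the 50th percentile of mean signals of non-control probe sets. R 4.3.3 with limma 3.58.1 (lmFit, eBayes, terms for cell line and siRNA) fitted all 27307 kept probe sets, with Benjamini-Hochberg adjustment over them and a threshold of 0.05. It has 1 residual and 4.82 prior degrees of freedom. Each line and siRNA has 1 array, so p values measure only the spread between arrays, and their number limits the precision.

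The members and lists were chosen with earlier results of these data known. Named genes were all members, KAT8, on each pathway list up to 4 genes with the largest siRNA change and up to 3 with the largest line difference among those past the test, and the 3 genes nearest to SMAD5. Antagonists and ID partners that went the other way between the lines were added. TGFBR3, RGMB and other genes are read from their brightest kept probe set. The alternatives were other offsets, signal minimums, scalings and probe set rules, eBayes with trend, and no block. Sequences come from a RefSeq promoter table (GRCh38.p14), and the 50 bases after each start are not shown. Figures were drawn with matplotlib 3.10.9.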

Additional observations from a re-analysis of the deposited data

Results flagged for a closer look

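On 6 of the 22 kept probe sets of the SMAD signalling genes (27.3%) the ratio of hMOF siRNA to scramble lay on opposite sides of 0 in the lines, as it did on 33.4% of all kept probe sets. With 1 array per group the difference between lines was not tested. For SMAD7 (204790_at) the log2 ratio in H1299 minus that in A549 was −0.93, from 0.02 in A549 to −0.92 in H1299. For the others the differences were small. They were −0.20 for SMAD1 (227798_at), −0.25 and −0.10 for SMAD2 (203076_s_at and 203077_s_at), 0.20 for SMAD3 (205396_at) and 0.19 for SMAD4 (202527_s_at).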

How the results depend on the processing

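With 1 probe set per gene, an alternative that tests fewer probe sets, limma called 458 of 12830 with hMOF siRNA. The reported fit called 1624 of 27307. Between the lines the counts were 6724 of 12830 and 13645 of 27307. Of the 10 members 4 were called between the lines with 1 probe set per gene, and 1 was 2-fold lower and 7 below 0 in both lines. Of all kept probe sets in the reported fit, 0.630% were 2-fold lower and 36.6% below 0 in both lines. The members were chosen with the siRNA ratios in view, so nothing is read from their siRNA counts. Without the block limma called 0 probe sets with hMOF siRNA (761 at an unadjusted p under 0.05) and 0 pathway genes (0 at an unadjusted p under 0.05). Between the lines it then called 8344 of 27307 probe sets, among them 4 of the 22 of the SMAD signalling genes. Without the block each fit holds only its own term, so the difference between the lines enters the residual of the siRNA fit. The siRNA difference likewise enters that of the line fit. How far this accounts for the lost calls was not tested. The other alternatives left these counts within 1.5 times of the reported ones. Of 88 mean siRNA ratios of the members recomputed under the other offsets and scalings, 81 moved by no more than the SD between lines, and none of the SMAD5 or ID ratios changed sign under them. The labels carry no replicate numbers, and the reported siRNA fit pairs the arrays by cell line. At low signal MAS5 values vary most, which limits the 10 probe sets left out.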
